A study of Homo sapiens with 12 samples.

Results

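Transcripts of 6 enzyme genes of proline metabolism (ALDH18A1, OAT, PYCR1, PYCR3, PRODH and ALDH4A1) were followed in HEK293 cells, a human embryonic kidney cell line. The genes were taken by symbol, and all 6 were found among the 36459 symbols of the gene table. The transcript table held 14 PYCR3 transcripts among 188753 entries. PYCR3 was picked because its estimated counts were lower in iron-treated than in vehicle cultures, and the other genes were added as its partners in the pathway. Values of these genes between those groups are therefore given as a description, without a p.

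The study asked how oleic acid, a monounsaturated fatty acid, acts on ferroptosis, the iron-dependent form of cell death, when it is induced with ferric ammonium citrate (FAC), an iron salt. HEK293 cultures received oleic acid together with FAC, oleic acid alone, FAC alone or vehicle, with 3 libraries in each of the 4 groups. Neither dose nor duration is given in the labels. A group with ammonium or citrate but no iron was not among them, so the iron and its counter-ions cannot be told apart. Replicates are numbered in the labels without a word on separate cultures, and p-values cover the spread among the libraries alone.

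Proline is made from glutamate or from ornithine. ALDH18A1 reduces glutamate, and OAT converts ornithine, to the shared intermediate pyrroline carboxylate. The reductases PYCR1, which sits in mitochondria, and PYCR3, which sits in the cytosol, turn that intermediate into proline with a reduced pyridine nucleotide. In mitochondria, PRODH oxidises proline back to the intermediate and ALDH4A1 carries it on to glutamate. In human cancer cells, PYCR1 and ALDH18A1 are known as targets of the transcription factor MYC and of the amino acid response factor ATF4.

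Gene totals ran from 14098216 to 18717397 estimated counts per library. Levels are given as CPM, in which TMM (trimmed means of M values) sets all libraries to one total. Of 10 genes expected in this line, 9 were detected in every library, among them PAX2, LHX1, NEFL and VIM, whereas PAX8 had at most 0.405 CPM. The mature kidney genes SLC34A1, UMOD and AQP2 were at 0 in all libraries, and NPHS1 had at most 0.113 CPM. LRP2, of the same list, was detected in every library at 2.76 to 12.1 CPM. Markers of other cell types were low in every library, with sums of 9.71 to 18.3 CPM for 4 fibroblast genes led by COL1A1 and 5.54 to 8.97 CPM for 4 hepatocyte genes led by TF. The 4 endothelial genes summed to at most 1.89 CPM and the 4 blood genes to at most 2.92 CPM. Only 1 fibroblast, 1 hepatocyte, 1 endothelial and 2 blood genes had enough counts to be tested, and none of those was called. The third libraries of the oleic acid + FAC group and of the oleic acid group stood apart. Their deviations from the mean of their own group correlated at -0.39 and -0.52 with log2 transcript length over 14030 genes. The other 10 libraries had values between -0.226 and 0.363, a description across genes, which are not independent. Deviations within a group sum to 0, so the values of its libraries depend on each other. Mitochondrially encoded mRNA took 12.1% of counts in the third oleic acid + FAC library, against 3.33% to 7.50% in the other libraries.

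PYCR3 fell with FAC in the presence of oleic acid, and it was the only one of the 5 proline genes tested that passed the threshold. It had 10.2, 10.3 and 10.9 CPM in oleic acid + FAC cultures, against 27.3, 24.6 and 28.9 CPM in oleic acid cultures. The highest value with both agents was well below the lowest with oleic acid alone. The group means were 10.5 ± 0.351 and 26.9 ± 2.2 CPM (SD, n = 3 each), a 2.57-fold lower level. On the log2 scale the difference was -1.36 (SE 0.13, 95% interval -1.63 to -1.09, adjusted p = 0.000215 by edgeR's quasi-likelihood test). The spread behind this test was estimated from all 12 libraries, among them the FAC and vehicle libraries in which PYCR3 was picked. In a fit of the 6 compared libraries alone PYCR3 passed with a higher adjusted p, given with the alternatives below. The raw estimated counts behind these values were 176, 181 and 153 with both agents, against 468, 458 and 387 with oleic acid alone. In these bulk libraries, fewer cells with the transcript and less of it per cell cannot be told apart.

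Among all 14209 genes tested, 1.45% fell by this rule and 2.21%, or 314 genes, passed in either direction, which became 740 genes with the replicate numbers as a block and 55 to 457 genes with 1 library left out. In the fit over all 12 libraries PYCR3 had the fourth lowest p. Its fold change was the 11th lowest of the 204 genes that fell and averaged at least 1 on the log2 CPM scale. An exact two-sided permutation test over the 6 libraries gave p = 0.1, the smallest that 3 against 3 libraries allow. Libraries of the oleic acid + FAC group lay wholly below those of the oleic acid group for 10.3% of genes. With the third library of both groups left out, the difference was -1.34 on the log2 scale (adjusted p = 0.000717).

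**Figure D1:**
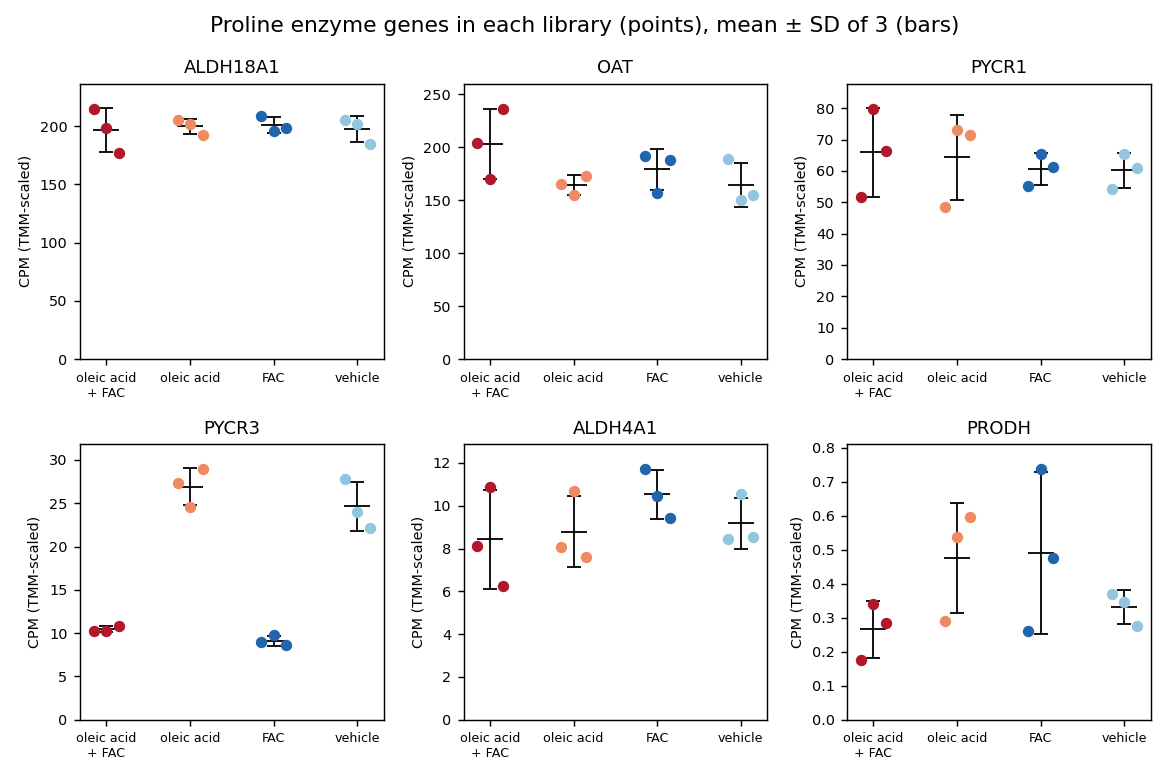
TMM-scaled CPM of the 6 proline genes in each library (points), with the mean and SD of 3 libraries (bars), for oleic acid + FAC, oleic acid, FAC and vehicle. PYCR3 sits at 8.65 to 10.9 CPM in the 6 libraries with FAC and at 22.2 to 28.9 CPM in the 6 without, whereas the groups overlap for the other genes.

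PYCR3 was also lower with FAC where no oleic acid was given. It had 8.97, 9.79 and 8.65 CPM in FAC cultures, against 27.8, 23.9 and 22.2 CPM in vehicle cultures. This is the difference PYCR3 was chosen for, and it was -1.43 on the log2 scale (SE 0.13), a 2.69-fold lower level. In that comparison 0.732% of all genes fell, and 12.4% lay wholly below the other group. The FAC difference with oleic acid minus the FAC difference without it was 0.06 on the log2 scale (95% interval -0.31 to 0.44). That value contains the contrast PYCR3 was chosen from and gets no p.

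Ordered by mean level, PYCR3 was highest in oleic acid cultures (26.9 CPM), then in vehicle (24.6 ± 2.86 CPM), oleic acid + FAC (10.5 CPM) and FAC cultures (9.13 ± 0.586 CPM). Oleic acid and vehicle libraries overlapped, with a difference of 0.13 on the log2 scale (95% interval -0.13 to 0.39). Oleic acid + FAC libraries lay above FAC libraries without overlap, a position shared by 4.61% of all genes, and the difference was 0.19 (95% interval -0.08 to 0.47). These comparisons share libraries with the ones above, so the intervals are descriptions.

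ALDH18A1, which starts proline synthesis from glutamate, averaged between 197 and 201 CPM in all 4 groups. It had 215, 198 and 177 CPM in oleic acid + FAC cultures, against 205, 202 and 192 CPM in oleic acid cultures. The groups overlapped, and the difference was -0.02 on the log2 scale (95% interval -0.24 to 0.20, adjusted p = 0.940 by edgeR). In FAC cultures the mean was 201 ± 6.77 CPM, and in vehicle cultures 198 ± 10.9 CPM (SD, n = 3 each). The gene lies on the minus strand at chr10:95605929-95656706 (GRCh38, GENCODE 29).

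The sequence before its start is shown because it holds CACGTG, the E-box bound by MYC with its partner MAX. MYC was called in these cultures, though not under every alternative, as given below. The 300-base window, 250 bases before to 50 after the RefSeq start on GRCh38.p14, was searched on both strands. It has 1 E-box, whose first base lies at position -136, set in capitals in the 250 bases before the start (chr10:95656712-95656961, minus strand):
ALDH18A1 promoter: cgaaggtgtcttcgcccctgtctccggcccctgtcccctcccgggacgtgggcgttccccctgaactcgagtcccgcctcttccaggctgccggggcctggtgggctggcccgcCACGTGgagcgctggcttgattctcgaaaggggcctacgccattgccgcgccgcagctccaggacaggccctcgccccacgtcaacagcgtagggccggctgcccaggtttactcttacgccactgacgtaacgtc
An E-box stood in 7.26% of the 35116 RefSeq promoter windows of this length. The windows of OAT and ALDH4A1 have no CACGTG, and none of the 3 genes' windows has TGATGNAA, a motif of ATF4 with its C/EBP partners, which 3.62% of windows hold. TGACGTCA, also searched, is in none of them and in 1.85% of all windows. CCAAT, in 34.6% of all windows, stands in the OAT window at -99 and -74 and not in those of the other genes. A match is a run of letters and does not show binding. PYCR1, PYCR3 and PRODH are named only.

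OAT, which feeds ornithine carbon into the pathway, lies at chr10:124397303-124418976 on the minus strand. It had 203, 170 and 236 CPM in oleic acid + FAC cultures, against 165, 154 and 173 CPM in oleic acid cultures. The second oleic acid + FAC library lay within the range of the oleic acid group, and the other two lay above it. The log2 difference was 0.31 (95% interval 0.0036 to 0.61), with an unadjusted p of 0.0477 and an adjusted p of 0.306 by edgeR. OAT was higher in all 3 same-numbered pairs, and with the replicate number as a block the adjusted p was 0.124. In FAC cultures OAT had 192, 157 and 188 CPM, against 188, 150 and 154 CPM in vehicle cultures, a log2 difference of 0.12 (SE 0.14).

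PYCR1, the mitochondrial reductase studied most in tumours, lies at chr17:81932384-81942412 on the minus strand. It had 51.7, 79.9 and 66.2 CPM in oleic acid + FAC cultures, against 48.6, 73.0 and 71.4 CPM in oleic acid cultures. The groups overlapped, with a log2 difference of 0.04 (95% interval -0.35 to 0.42, adjusted p = 0.944 by edgeR). FAC cultures averaged 60.5 ± 5.12 CPM and vehicle cultures 60.3 ± 5.60 CPM (SD, n = 3 each).

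The breakdown enzymes were expressed at low levels. ALDH4A1, at chr1:18871430-18902781 on the minus strand, had 8.14, 10.9 and 6.25 CPM in oleic acid + FAC cultures, against 8.05, 10.7 and 7.62 CPM in oleic acid cultures. The groups overlapped, with a log2 difference of -0.06 (95% interval -0.51 to 0.40, adjusted p = 0.923 by edgeR). FAC cultures averaged 10.5 ± 1.14 CPM and vehicle cultures 9.17 ± 1.18 CPM (SD, n = 3 each), and those groups overlapped too.

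PRODH, the proline dehydrogenase at chr22:18912777-18936553, had 3 to 14 estimated counts per library. Its levels were 0.174, 0.340 and 0.284 CPM with both agents, 0.292, 0.536 and 0.597 CPM with oleic acid, 0.260, 0.736 and 0.477 CPM with FAC and 0.370, 0.347 and 0.275 CPM with vehicle. The gene did not pass the filter on low counts and was not tested. A count of 0 would allow up to 3 counts, or 0.158 to 0.224 CPM on this scale, a limit that the lowest PRODH value did not exceed.

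**Figure D2:**
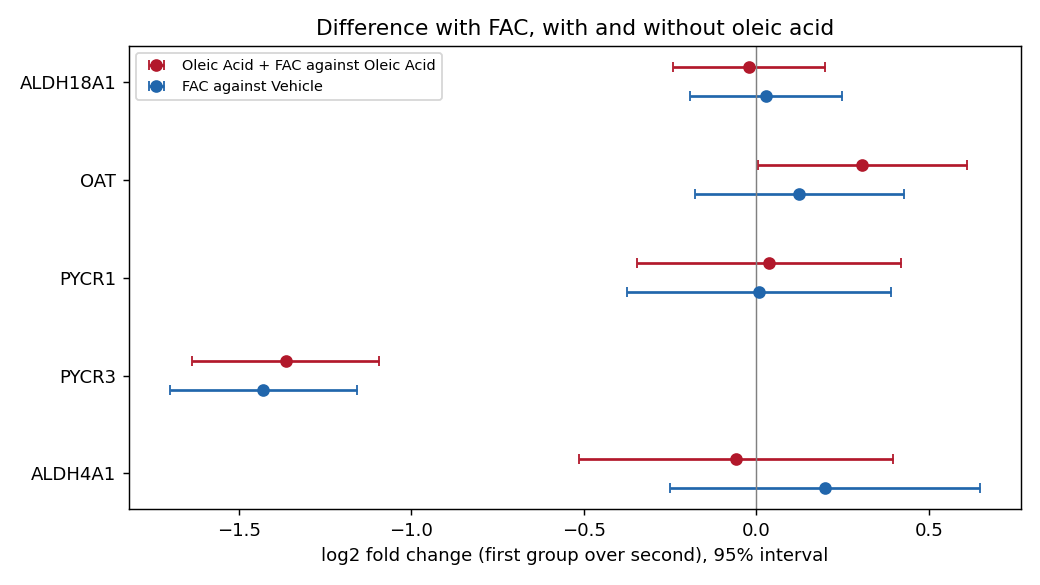
Log2 fold changes with FAC (points) and 95% intervals (bars) for 5 proline genes, oleic acid + FAC over oleic acid in red and FAC over vehicle in blue. The interval of PYCR3 with oleic acid runs from -1.63 to -1.09. Without oleic acid it runs from -1.70 to -1.16, a description, since PYCR3 was picked for that difference. The intervals of the other genes include 0 or, for OAT with oleic acid, begin at 0.0036.

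No proline gene passed the test for oleic acid. Between oleic acid and vehicle cultures, and between oleic acid + FAC and FAC cultures, 0 of the 4 proline genes tested there and 0 (0% of 14209) of all genes passed in edgeR. At an unadjusted p under 0.05 there were 118 and 576 genes, and DESeq2 called 0 and 1. Between oleic acid and vehicle, the log2 differences of the proline genes other than PYCR3 ran from -0.06 for ALDH4A1 to 0.09 for PYCR1. Between oleic acid + FAC and FAC they ran from -0.32 for ALDH4A1 (95% interval -0.77 to 0.14) to 0.18 for OAT (95% interval -0.12 to 0.49). The FAC difference with oleic acid minus that without it passed for none of the 4 proline genes given this test, as for 0 of all genes (116 at an unadjusted p under 0.05).

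Levels of the proline genes were set side by side as CPM per kilobase of transcript. OAT had 101 ± 16.3 CPM per kilobase with both agents and 81.6 ± 4.73 with oleic acid, and ALDH18A1 had 69.8 ± 8.51 and 72.6 ± 1.99. PYCR1 followed with 38.9 ± 8.20 and 38.5 ± 7.38 CPM per kilobase. ALDH4A1 had 3.21 ± 0.787 and PRODH 0.263 ± 0.0470 CPM per kilobase with both agents (SD, n = 3 each). RNA of OAT, ALDH18A1 and PYCR1 was thus far above that of the breakdown genes.

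PYCR3 had 4.24, 4.24 and 4.45 CPM per kilobase in oleic acid + FAC cultures, against 11.5, 10.4 and 11.9 in oleic acid cultures. In FAC cultures it averaged 3.92 ± 0.255 CPM per kilobase, and in vehicle cultures 10.2 ± 1.04 (SD, n = 3 each). Per length, PYCR3 thus lay below PYCR1 in every library. Of the 14 PYCR3 transcripts, 7, the most abundant among them, had no annotated length here and were given the gene's mean length, weighted by counts. Those with an annotated length held 16.7% to 51.6% of the gene's counts, so these values rest largely on the assigned length.

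**Figure D3:**
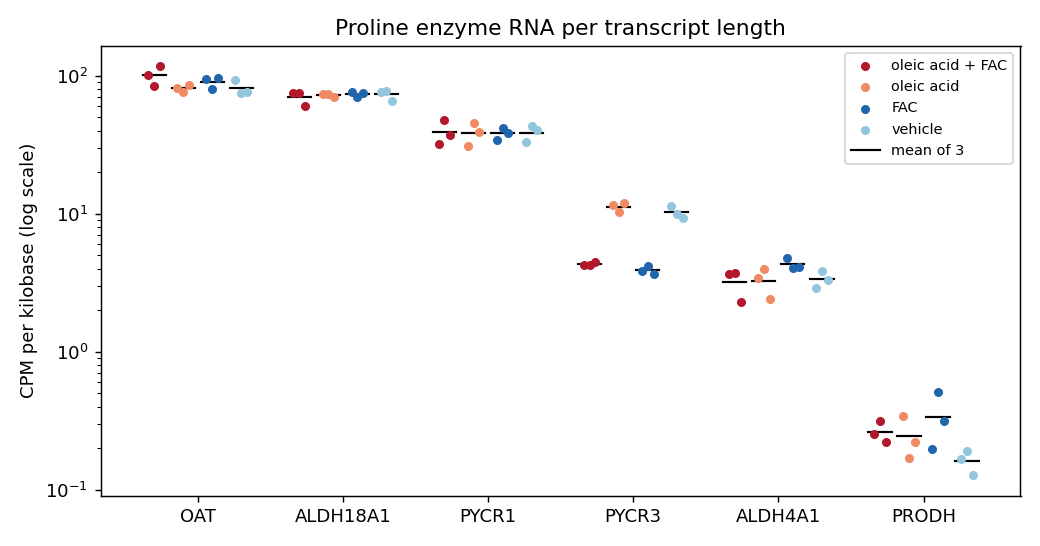
CPM per kilobase of transcript (log axis) of 6 proline genes in each library (points), with the mean of 3 (black lines), for oleic acid + FAC, oleic acid, FAC and vehicle. PYCR3 averages 4.31 and 3.92 in the groups with FAC, against 11.3 and 10.2 in the groups without, and lies below OAT, ALDH18A1 and PYCR1 in all of them.

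The PYCR3 gene, at chr8:143603913-143609773 on the minus strand, was summed from 14 transcript entries. Of these, 7 lie on the primary assembly in GENCODE 29, and 7 are tied to the symbol by its table of gene symbols alone. In 5 cases an entry on the primary assembly and one of the others had identical values in all libraries, so their counts cannot be told apart. The primary assembly entries held 16.7% to 51.6% of the gene's counts, depending on the library. Entries at 0 in all libraries numbered 2, and only 4 averaged at least 1 CPM. The other 8 with counts had at most 6 in any library. Besides the 5 pairs and the 2 entries at 0, there remain ENST00000632107.1, outside the primary assembly, and ENST00000495276.6, on it. Whether these stand for the same transcript was not tested.

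In the estimated counts, most of the difference in the gene fell on ENST00000632107.1, an entry outside the primary assembly. It had 79, 81 and 47 estimated counts in oleic acid + FAC cultures, against 355, 341 and 187 in oleic acid cultures. The highest count with both agents was below the lowest with oleic acid alone. Its level averaged 4.17 ± 0.727 and 17.7 ± 3.42 CPM (SD, n = 3 each), a log2 difference of -2.07 (SE 0.30). The unadjusted p was 3.5e-05 and the adjusted p over 51464 transcripts 0.0850 by edgeR, so it did not pass. Only 0.00777% of all transcripts fell by this rule. In FAC cultures it had 49, 116 and 92 counts, against 252, 299 and 286 in vehicle cultures.

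The remaining 13 entries together had 5.58, 5.67 and 7.45 CPM in oleic acid + FAC cultures, against 6.59, 6.28 and 14.9 CPM in oleic acid cultures. The first and second oleic acid libraries lay within the range of the group with both agents, and the third stood far above it. In the third oleic acid library these entries had 200 counts and ENST00000632107.1 had 187, whereas in the first they had 113 and 355. A count of PYCR3 without ENST00000632107.1, an alternative chosen after seeing the data, gave a log2 difference of -0.56 (adjusted p = 0.476 by edgeR). With the primary assembly entries alone it was -0.58 (adjusted p = 0.428). The fall of the gene thus passed the test with all entries summed and not with either of these subsets. Kallisto divides the gene's reads among the entries by estimate, and that split may not be exact. The subsets therefore cannot decide whether the gene as a whole fell. Between FAC and vehicle cultures the subsets gave -0.99 and -1.07 on the log2 scale, and between oleic acid + FAC and FAC cultures 0.56 and 0.62.

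The other entries at 1 CPM or more did not pass. ENST00000495276.6 (PYCR3-207, 2332 bases) had 44, 48 and 53 counts with both agents, against 43, 81 and 96 with oleic acid, a log2 difference of -0.63 (SE 0.56, adjusted p = 1.0 by edgeR). ENST00000220966.10 (PYCR3-201, 2678 bases) and its copy ENST00000616663.2 each had 25, 26 and 26 counts with both agents, against 28, 15 and 52 with oleic acid. In vehicle cultures they had 66, 36 and 0, so replicates of 1 group ran from the highest value of all to none. Shares among entries are kallisto's estimates: ENST00000632107.1 held 40.3% ± 8.10 with both agents, 66.2% ± 15.5 with oleic acid, 53.7% ± 16.2 with FAC and 66.4% ± 8.95 with vehicle (SD, n = 3 each).

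**Figure D4:**
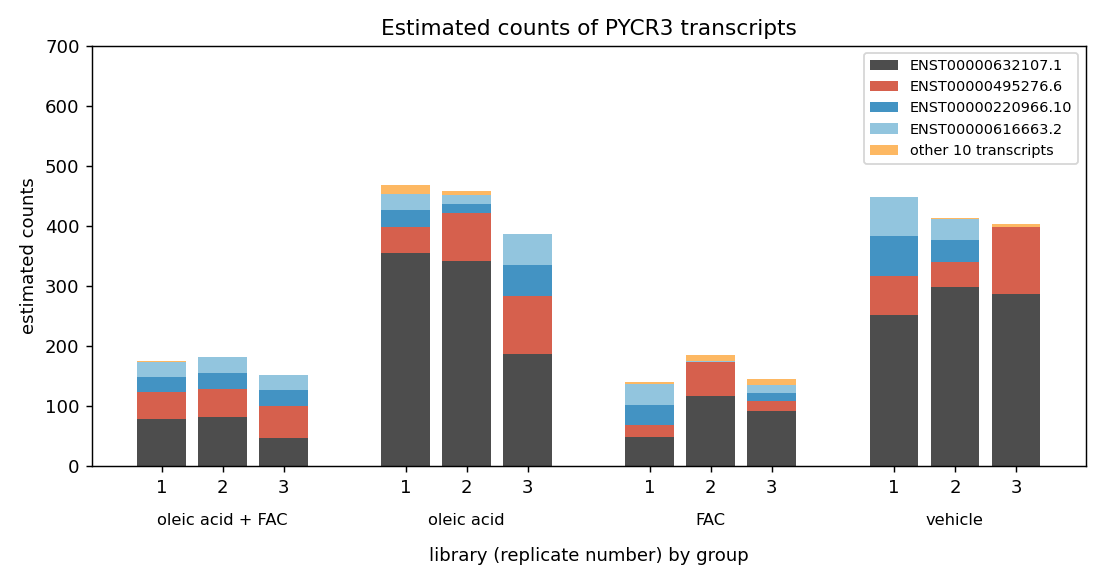
Estimated counts of the PYCR3 transcript entries stacked in each of 12 libraries, for oleic acid + FAC, oleic acid, FAC and vehicle. The dark part, ENST00000632107.1, holds 47 to 116 counts in the 6 libraries with FAC and 187 to 355 in the 6 without.

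Genes next to PYCR3 did not pass the test in either FAC comparison. TIGD5 ends 688 bases away on the opposite strand, and TSTA3 and EEF1D lie 2844 and 4371 bases away. TIGD5 averaged 27.6 ± 2.81 CPM with both agents and 24.8 ± 5.16 CPM with oleic acid (log2 difference 0.16, adjusted p = 0.627 by edgeR). TSTA3, which makes GDP-fucose, gave 0.15 (adjusted p = 0.710), and EEF1D, a translation elongation subunit, 0.28 (adjusted p = 0.391).

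The rest of the proline network showed no call. Of 10 further proline enzymes and cofactor genes, 8 were tested and 0 passed between oleic acid + FAC and oleic acid, where 2.21% of all genes did, or between FAC and vehicle, where 1.19% did. Their median log2 differences were 0.06 and -0.03, beside 0.0025 and 0.0058 over all genes. NADK2, which supplies mitochondrial NADP for proline synthesis, averaged 64.7 ± 6.73 CPM with both agents and 63.2 ± 7.84 CPM with oleic acid. LTO1, a protein reported to bind PYCR1 in human cells, had the lowest value, -0.47 on the log2 scale (adjusted p = 0.250 by edgeR).

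Without the replicate block, genes that supply or use glutamate gave 0 calls among 14 tested of 17. Their medians were 0.15 with oleic acid and 0.11 without. For lists of this size the shares of all genes called, 2.21% and 1.19%, correspond to less than 1 call, so a count of 0 does not set them apart. GLUL, the glutamine synthetase, had 588, 664 and 678 CPM in oleic acid + FAC cultures, against 444, 489 and 523 CPM in oleic acid cultures. Its log2 difference was 0.41 (SE 0.11, adjusted p = 0.0827 by edgeR). SLC1A3, a glutamate transporter of the plasma membrane, had 136, 121 and 126 CPM with both agents, against 105, 98.7 and 92.3 CPM with oleic acid (log2 difference 0.37, adjusted p = 0.0862 by edgeR). Neither gene's groups overlapped, as for the 7.85% of all genes that lay wholly above, and with the replicate number as a block both passed (adjusted p = 0.0258 for GLUL and 0.0395 for SLC1A3), 2 of 14 genes where 5.21% of all genes did. Genes of ornithine, urea and arginine metabolism gave 0 calls among 14 tested of 18, with medians of 0.14 and 0.03. Proline carriers gave 0 among 7 tested of 11, with medians of -0.02 and -0.0032, and genes of collagen prolyl hydroxylation 0 among 9 tested of 10, with medians of 0.06 and 0.07.

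**Figure D5:**
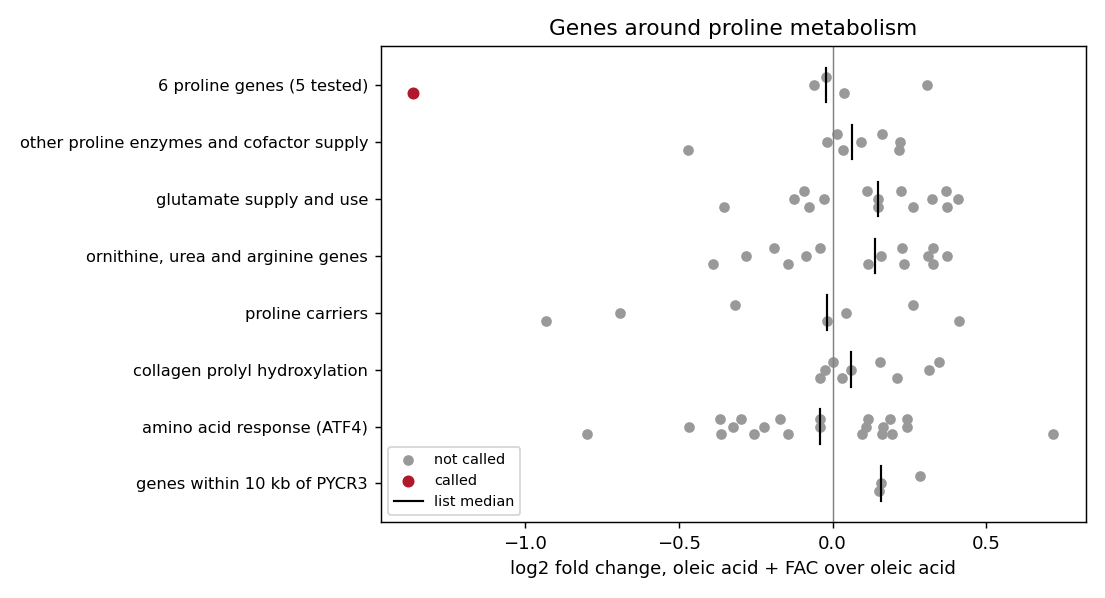
Log2 fold changes of oleic acid + FAC over oleic acid for each tested gene (points) of the proline genes, 6 related lists and the genes within 10 kb of PYCR3, with list medians (black lines). Without the replicate block, PYCR3 at -1.36 is the only point drawn that is past the threshold, and the list medians lie between -0.04 and 0.16. The list of regulators is not drawn, and in it MYC was called at 0.57.

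The amino acid response, through which ATF4 raises enzymes of amino acid synthesis when amino acids run short, gave 0 calls among 22 tested genes in either FAC comparison, where the 2.21% and 1.19% of all genes again correspond to less than 1 call. The medians were -0.04 with oleic acid and -0.02 without. ATF4 itself had 252, 325 and 485 CPM in oleic acid + FAC cultures, against 336, 386 and 608 CPM in oleic acid cultures. The groups overlapped, the level was lower with both agents in all 3 same-numbered pairs, and the log2 difference was -0.32 (SE 0.26, adjusted p = 0.581 by edgeR). With the replicate number as a block it was -0.33 (SE 0.13, adjusted p = 0.149). CHAC1, a glutathione-degrading target of ATF4, had the lowest value of the list in both comparisons, -0.80 with oleic acid and -1.48 without (adjusted p = 0.289 and 0.0761 by edgeR). The second of these passed in 8 of 20 alternatives. DDIT3, the stress factor CHOP, had the highest, 0.72 with oleic acid and 0.51 without.

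Of 5 regulators known to act on these genes in human cells, MYC was the only one called, and it rose. It had 246, 281 and 221 CPM in oleic acid + FAC cultures, against 168, 176 and 159 CPM in oleic acid cultures, with no overlap, a position above the other group that 7.85% of all genes shared. The log2 difference was 0.57 (SE 0.11, adjusted p = 0.0221 by edgeR), a 1.49-fold higher level, where 0.76% of all genes rose. The call was lost without the first or the second oleic acid + FAC library (adjusted p = 0.0535 and 0.0977), without the first or the second oleic acid library (0.0846 and 0.0641), and in a fit of those 6 libraries alone (0.201). In FAC cultures MYC had 262, 258 and 253 CPM, against 176, 178 and 155 CPM in vehicle cultures (log2 difference 0.60, adjusted p = 0.0213 by edgeR). Those groups did not overlap either, as for 10% of genes, and 0.457% of genes rose by the test. Leaving out any of those 6 libraries gave adjusted p of 0.0712 to 0.133.

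ALDH18A1 and PYCR1, both reported MYC targets, differed by -0.02 and 0.04 on the log2 scale in the same comparison with oleic acid. LHX1, 1 of 9 tested markers of the line, was called higher with both agents than with oleic acid, at 0.61 on the log2 scale (adjusted p = 0.0293 by edgeR). The call was lost without the second or the third oleic acid + FAC library (adjusted p = 0.122 and 0.0832), the first or the second oleic acid library (0.0878 and 0.0987), or the second vehicle library (0.0505), and in a fit of the 6 libraries compared (0.201). It was also lost without the third libraries of both groups (0.0800) and with the length trend removed (0.0579). Its part in the result for PYCR3 was not tested.

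Across the 12 libraries, the genes whose log2 CPM was most like that of PYCR3 among 12325 were JMJD4 (Pearson r 0.985), SRSF6 (0.980), UTP14A (0.977), CCDC71 (0.976), PGBD1 (0.972) and TOE1 (0.972). SRSF6 is a splicing factor, UTP14A takes part in ribosome assembly and JMJD4 hydroxylates a translation release factor. All 12 points come from the same libraries, and PYCR3 lies at a lower level in the 6 with FAC than in the 6 without, so r follows that gap. JMJD4 differed by -1.18 on the log2 scale between oleic acid + FAC and oleic acid, and by -1.37 between FAC and vehicle. The other proline genes had r from -0.479 for OAT to -0.0172 for ALDH18A1.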

How the data were processed

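Total RNA of integrity number 10 was poly-A selected and made into TruSeq libraries, per the labels' protocols. The authors deposited estimated counts from kallisto per gene symbol and per transcript, per the labels. Tools named in the submitters' processing notes are bcl2fastq 2.19, kallisto 0.46.1 and sleuth 0.30.0. All deposited expected counts were whole numbers, so rounding changed 0 values. Whether strand was used is not given in the sources used here.

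Genes and transcripts were filtered with filterByExpr, scaled with TMM and tested two-sided with edgeR 4.0.16 (quasi-likelihood, 1 mean per group over all 12 libraries, Benjamini-Hochberg, threshold 0.05) in R 4.3.3. This kept 14209 genes and 51464 transcripts. Intervals are 95%. Alternatives used DESeq2 1.42.0, limma 3.58.1 (voom), other scalings, filters and sets of libraries. The edgeR gene fit was tried on simulated data for oleic acid + FAC against oleic acid. It recovered 82% of 2-fold and 97% of 4-fold changes, and 7.25% of its calls were unchanged genes. Transcript fits and alternatives were not simulated.

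Counts carry no molecular identifiers, so detection limits (3 counts) cover counting error only. Replicate numbers were taken to pair oleic acid + FAC with oleic acid libraries, which the labels do not state. The main fit leaves this pairing out, and its calls and p-values are those given unless a block is named. Fits with the replicate number as a block are alternatives, and they called more genes in that comparison. Deviations of same-numbered libraries from group means correlated at 0.459, 0.296 and 0.612. For oleic acid + FAC and FAC they were 0.226, 0.221 and 0.34, all over the limit of 0.1. The first oleic acid + FAC and the second oleic acid library, of unlike number, also passed that limit (0.263). The third libraries, at 0.612, were also those that stood apart in the trend with length.

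The genes, lists, markers and tests were chosen with earlier results of these data known. Genes named outside the proline genes are ATF4, MYC, called genes of each list, genes within 10 kb of PYCR3, the 6 most like it over libraries, and, chosen after their values were seen, list extremes, NADK2 and the genes called only with the replicate block. Lists covered further proline enzymes, glutamate, ornithine, carriers, prolyl hydroxylation, the ATF4 response and regulators. Some genes of these lists, and 1 planned share, are not reported here.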

Additional observations from a re-analysis of the deposited data

How the results depend on the processing

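PYCR3 stayed lower with oleic acid + FAC than with oleic acid under all 22 alternatives and passed in 20, from leaving out each of 12 libraries in turn (-1.43 to -1.31 on the log2 scale, highest adjusted p = 0.00365) to DESeq2, voom, upper-quartile scaling, no filter, the 6 libraries alone (adjusted p = 0.0200), the replicate block (adjusted p = 0.000217) and removal of the length trend. It did not pass in the subsets of transcripts, -0.58 for the primary assembly and -0.56 without ENST00000632107.1. No PYCR3 transcript passed in any of 16 settings (adjusted p 0.0884 to 1.0 for ENST00000632107.1). With the longest transcript as gene length, PYCR3 had 3.90 CPM per kilobase in oleic acid + FAC and 10.1 in oleic acid cultures, instead of 4.31 and 11.3.

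Genes passing between oleic acid + FAC and oleic acid numbered 314, against 795 with DESeq2, 19 with the 6 libraries alone, 740 with the replicate block, 687 with the length trend removed and 55 to 457 with 1 library left out. The count moved by over 1.5 times without 1 of the 3 oleic acid + FAC libraries (154, 55 and 176 in order of replicate), the first or the second oleic acid library (69 and 103), the third FAC library (207) and the second or the third vehicle library (193 and 196). Between FAC and vehicle, 169 became 514, 346, 431 and 400 under the same settings, 676 without the third oleic acid and oleic acid + FAC libraries, and 27 to 302 with 1 library left out. It moved that far without the first, second or the third FAC library (37, 57 and 37), the third oleic acid library (302) and the first, second or the third vehicle library (80, 31 and 27). Between oleic acid + FAC and FAC, DESeq2 called 1. The replicate block changed no call of a proline gene. Between FAC and vehicle, CHAC1 passed with the block (-1.54, adjusted p = 0.00735). So did NEFM, a marker of the line (0.51, adjusted p = 0.0493 with the block and 0.634 without it, by edgeR). For FAC and vehicle, same-numbered libraries correlated at 0.243, 0.3 and -0.0102, and for oleic acid and vehicle at -0.0481, 0.265 and -0.0344, so those numbers are not taken to pair libraries. The third FAC library, for one, correlated best with the first vehicle library (0.121). The cause of these shifts was not tested.

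Among values with a test, signs turned in 35 cases, 12 of them outside the single left-out libraries, and 0 of the turned values passed. Signs turned in 5 further cases with 1 library left out among the untested differences between FAC and vehicle, which ranged from -0.0613 to 0.0717 for PYCR1 and -0.0179 to 0.0656 for ALDH18A1. For ALDH18A1 the log2 difference became 0.0247 without the third libraries and 0.0433 with the length trend removed (oleic acid + FAC against oleic acid), and 0.0271 and 0.0140 (oleic acid + FAC against FAC). For ALDH4A1 it became 0.0253 and 0.0060 (oleic acid + FAC against oleic acid), and 0.0272 without the third libraries for oleic acid against vehicle. For OAT, oleic acid against vehicle became -0.00070 with DESeq2, -0.00021 with the 6 libraries alone, -0.0419 without the third libraries and -0.0410 with the length trend removed. With 1 library left out, oleic acid + FAC against oleic acid ranged from -0.131 to 0.184 for PYCR1, -0.0907 to 0.0505 for ALDH18A1, -0.288 to 0.114 for ALDH4A1 and -0.0653 to 0.117 for NADK2, which had -0.113 without the third libraries of both groups. Oleic acid against vehicle ranged from -0.0078 to 0.260 for PYCR1, -0.0283 to 0.0457 for ALDH18A1, -0.226 to 0.0515 for ALDH4A1 and -0.0608 to 0.111 for OAT. Oleic acid + FAC against FAC ranged from -0.0395 to 0.271 for PYCR1 and -0.101 to 0.0394 for ALDH18A1, and FAC against vehicle from -0.191 to 0.0413 for TSTA3.

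The share of PYCR3 transcripts among protein-coding ones alone was not run, since entries outside the primary assembly had no type here. PRODH, at 3 to 14 counts per library, was too low to test.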
